A study of Homo sapiens with 40 samples.

Results

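The genes described here are 9 genes of the interferon pathway, of 58395 genes in the table of read counts, followed across 10 conditions of HEK293A cells, a human embryonic kidney line. They were taken by name, from a list drawn up with earlier results of these data known: IFIT1, IFIT2, IFIT3, ISG15, OASL, IFIH1, IRF1, IRF7 and IFNB1. Poly(A) RNA was sequenced from wild-type (WT) cells and from PARP1-KO cells, each under 5 treatments with 4 libraries per condition, 40 libraries in all. Both lines were left untreated, or received 0.1% DMSO, topotecan (Tpc) with 0.1% DMSO, 5 µM OL9-119 in 0.1% DMSO, or Tpc together with 5 µM OL9-119, for 5 to 5.5 h. Tpc was given at 100 nM to WT cells and at 50 nM to PARP1-KO cells, so every comparison of the Tpc response between genotypes also compares those doses. Tpc traps topoisomerase 1 on DNA, and OL9-119 inhibits TDP1, an enzyme that removes such trapped protein. The PARP1-KO line is 1 CRISPR/Cas9 clone, so the knockout and the history of that clone cannot be told apart. The sample titles call it a knockout and the genotype field of the labels a knockdown. The labels call the replicates biological and the study's methods call them technical, so the p-values measure the spread between these libraries.

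Type I interferons are secreted proteins that cells make after sensors meet foreign or misplaced nucleic acid. Through their receptor they activate a complex of transcription factors that includes STAT2 and IRF9 and binds the interferon-stimulated response element (ISRE) of many target genes. IFIH1 (MDA5) is a cytosolic sensor of long double-stranded RNA. IRF1 and IRF7 are transcription factors of the pathway, and IRF1 is also a direct target of NF-kappa B. IFNB1 encodes interferon beta. IFIT1, IFIT2 and IFIT3 belong to a family of antiviral proteins that act against foreign RNA and its translation. ISG15 is a ubiquitin-like protein joined to other proteins, and OASL is a relative of the 2′-5′-oligoadenylate synthetases.

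All 9 are annotated as protein-coding genes in GENCODE release 44 on hg38, and counts were taken over whole genes, without UTRs or introns being told apart. IFIT2 (ENSG00000119922, chr10:89283694-89309271), IFIT3 (ENSG00000119917, chr10:89327307-89377473) and IFIT1 (ENSG00000185745, chr10:89392546-89406487) lie side by side on the plus strand. ISG15 (ENSG00000187608) lies at chr1:1001138-1014540 on the plus strand. OASL (ENSG00000135114, chr12:121017763-121039246), IFIH1 (ENSG00000115267, chr2:162267074-162318684), IRF1 (ENSG00000125347, chr5:132440440-132508719), IRF7 (ENSG00000185507, chr11:612553-615983) and IFNB1 (ENSG00000171855, chr9:21077104-21077942) lie on the minus strand. The strand setting of the counts was not stated, and where exons overlap those of another gene the reads cannot be assigned with certainty. IRF1 shares 2805 exon bases with the antisense gene IRF1-AS1, and IFIT2 shares 524 with a long non-coding RNA on its own strand.

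RefSeq promoter windows (GRCh38.p14, 250 bases before to 50 after a gene's start) were found for 6 of the 9 genes, ISG15, IFIT1, IFIT3, IFIH1, IRF1 and IFNB1, with 7 windows in all. The 250 bases before the start are shown for ISG15, IFIT1, IFIH1, IRF1 and IFNB1, to set the letters before genes that were higher, lower or undetected beside each other. Capitals mark matches, on either strand, to the ISRE core GAAANNGAA, the gamma-activated site TTCNNNGAA, and the kappa B core GGANNTTCC.
ISG15, chr1:1013247-1013496, plus strand: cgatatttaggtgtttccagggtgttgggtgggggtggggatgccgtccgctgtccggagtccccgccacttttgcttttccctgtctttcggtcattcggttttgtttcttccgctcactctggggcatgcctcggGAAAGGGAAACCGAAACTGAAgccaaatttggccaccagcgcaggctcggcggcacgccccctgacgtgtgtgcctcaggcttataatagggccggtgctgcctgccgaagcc
IFIT1, chr10:89392373-89392622, plus strand: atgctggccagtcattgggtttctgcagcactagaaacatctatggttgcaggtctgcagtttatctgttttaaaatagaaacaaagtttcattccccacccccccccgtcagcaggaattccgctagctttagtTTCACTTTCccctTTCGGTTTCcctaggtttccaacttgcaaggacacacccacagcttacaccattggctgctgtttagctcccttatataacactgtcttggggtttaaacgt
IFIH1, chr2:162318685-162318934, minus strand: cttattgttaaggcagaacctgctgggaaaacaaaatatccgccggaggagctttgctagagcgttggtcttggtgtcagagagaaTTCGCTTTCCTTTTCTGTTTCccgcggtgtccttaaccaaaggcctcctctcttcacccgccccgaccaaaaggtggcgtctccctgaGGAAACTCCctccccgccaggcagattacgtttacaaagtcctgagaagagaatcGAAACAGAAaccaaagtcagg
IRF1, chr5:132490774-132491023, minus strand: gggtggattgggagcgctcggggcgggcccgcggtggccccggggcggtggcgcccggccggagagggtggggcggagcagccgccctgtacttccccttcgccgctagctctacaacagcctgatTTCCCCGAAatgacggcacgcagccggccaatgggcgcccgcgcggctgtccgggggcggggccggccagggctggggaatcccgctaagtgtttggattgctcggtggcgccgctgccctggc
IFNB1, chr9:21077943-21078192, minus strand: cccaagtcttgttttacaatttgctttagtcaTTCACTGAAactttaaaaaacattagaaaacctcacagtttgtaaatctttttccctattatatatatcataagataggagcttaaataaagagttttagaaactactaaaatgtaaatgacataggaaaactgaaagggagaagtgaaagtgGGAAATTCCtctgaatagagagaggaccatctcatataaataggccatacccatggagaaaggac
The ISRE core was found in 5 of the 7 windows, against 8.11% of all 35116 windows, and overlapping copies make up the long capital runs of ISG15 and IFIH1. The gamma-activated site was found in 2 of 7 (7.66% of all windows) and the kappa B core in 2 of 7 (4.56%). In the IRF1 window the single match to these patterns was a gamma-activated site. The kappa B pattern is narrow and misses other spellings, such as the letters ggggaatccc in the IRF1 window. A window without a mark can therefore still hold a kappa B site. The IFNB1 window held a gamma-activated site and a kappa B match, and the IFIH1 window 4 ISRE matches and 1 kappa B match. A match is a description of letters and not evidence of binding.

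Depth ranged from 3455043 to 20379777 counts per library, and 28922 genes with at least 10 counts in all were tested. PARP1, the edited gene, had 737 to 887 CPM (counts scaled for library size) in the 20 WT libraries and 30.4 to 46.6 in the 20 PARP1-KO libraries, a fall of 4.54 on the log2 scale in untreated cells (SE 0.12, adjusted p = 2.08e-37). Of the markers of the line, KRT8, KRT18 and VIM were high in every library, CDH2 and LHX1 were present, and PAX2 was low, with 0.0979 to 12.05 CPM. Summed leukocyte markers came to 1.76 to 7.65 CPM in WT and 4.02 to 10.6 in PARP1-KO libraries, with PTPRC at 0 in all WT libraries and at most 0.464 CPM in PARP1-KO libraries. Fibroblast and endothelial markers summed to 29.7 to 71.3 CPM in WT and 26.7 to 43.2 in PARP1-KO libraries. At a common depth of 3455043 counts, 8 WT libraries stood apart by few detected genes, all below the 17953 of the lowest PARP1-KO library, so calls that were lost without these 8 are named beside the result. Their part in the results was not tested beyond that.

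No member was abundant in either line. IFNB1 was listed at 0 in all 20 WT libraries, which allows up to 0.202 to 0.824 CPM per library if 3 counts are taken as the floor. It had 12 counts in all in PARP1-KO cells, with 2 and 3 in untreated replicates 2 and 3, 4 in OL9-119 replicate 1 and 3 in Tpc + OL9-119 replicate 4. These counts are at the floor, IFNB1 passed the filter only through PARP1-KO libraries, and no fold is given for it. Of the other 20 listed interferon genes 6 passed the filter, and together they had at most 3.36 CPM in any library. The remaining 8 members were above 0 in every library, apart from OASL, which was at 0 in 4 WT libraries.

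On a scale of CPM per kilobase of exon in untreated WT cells, ISG15 was highest at 7.78 ± 2.53 (SD, n = 4) and IRF7 followed at 5.75 ± 1.45. IFIT1, IFIH1, IRF1 and IFIT3 lay between 2.04 and 2.72, IFIT2 was at 1.37 ± 0.75 and OASL at 0.16 ± 0.18. In untreated PARP1-KO cells ISG15 was again highest, at 14.1 ± 2.83, and IFIT2 at 2.34 ± 0.51 stood above IFIT1 at 1.19 ± 0.18. Exon length is the union over all annotated transcripts, 12265 bases for IRF1 against 867 for ISG15. This scale therefore depends on the gene model. In CPM without that scaling, IRF1 was the highest member in untreated WT cells, at 26.4, and ISG15 was at 6.74. In the plot of CPM by library the genotypes overlap widely for IRF1 and IFIT3, and less for IFIT2 and ISG15.

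**Figure D1:**
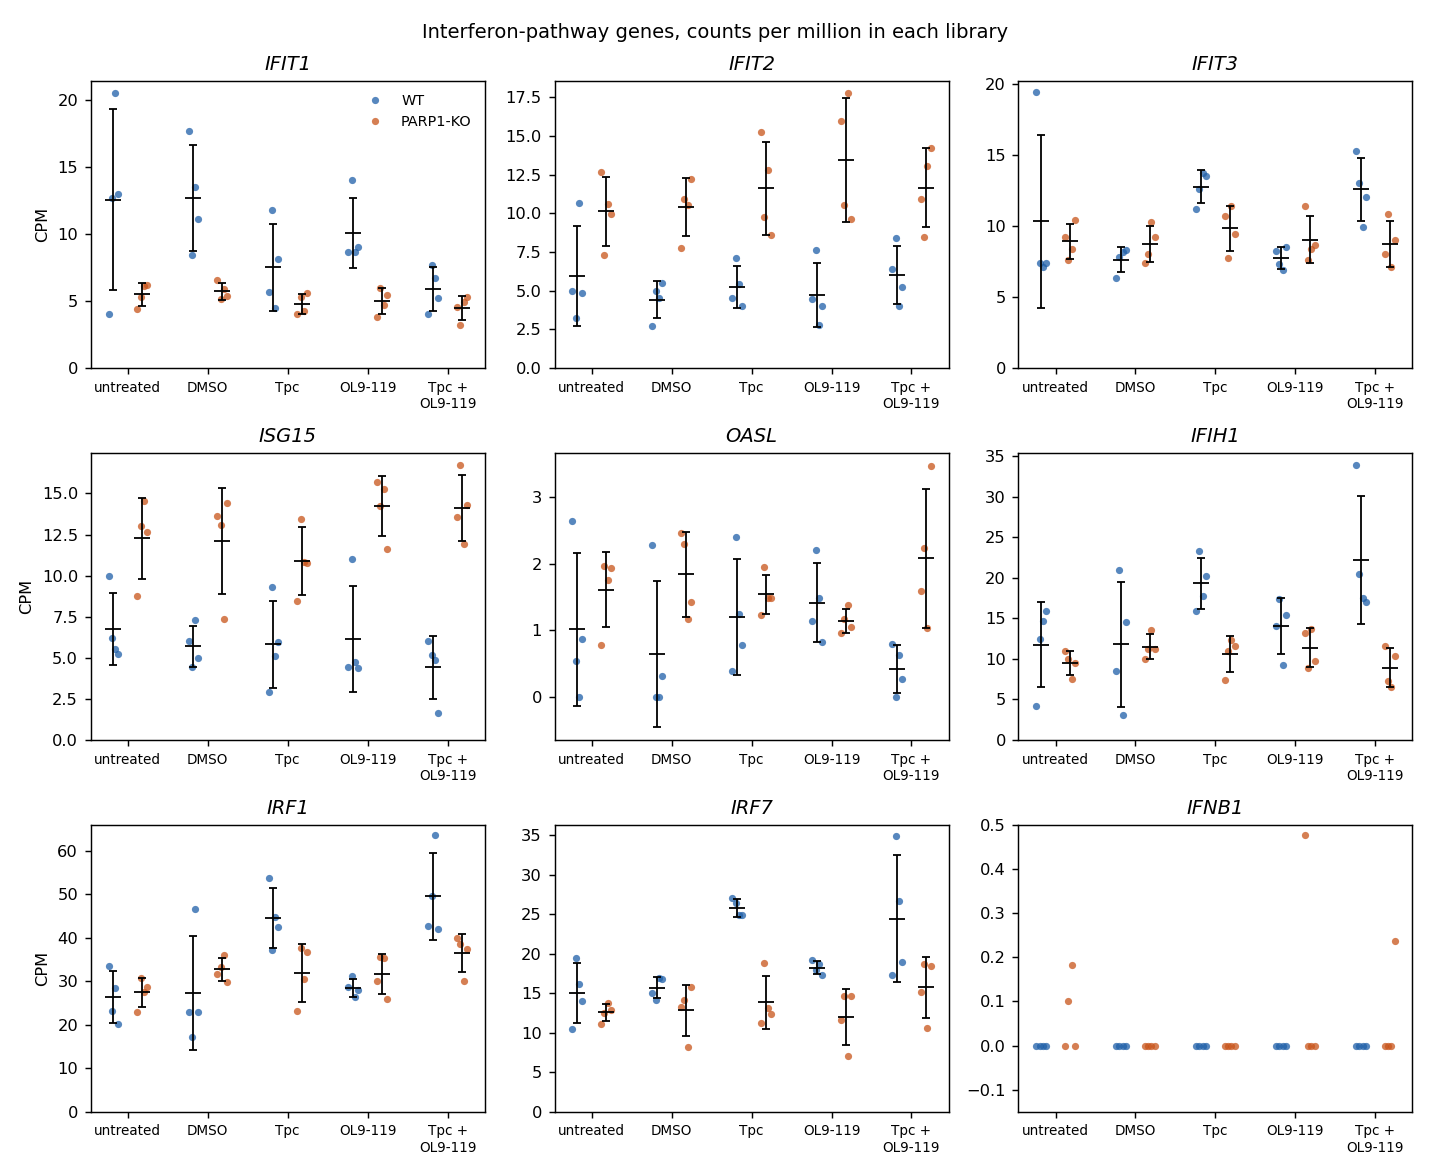
CPM of the 9 genes in each of 40 libraries, by treatment, for WT (blue) and PARP1-KO (orange); bars are the mean ± SD of 4 libraries, left out for IFNB1. IRF1 in WT cells sits at 37.2 to 53.7 with Tpc and 42.0 to 63.5 with Tpc + OL9-119 against 20.2 to 33.5 untreated, and IFIT2 is at 2.7 to 10.7 in WT and 7.33 to 17.8 in PARP1-KO libraries.

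The first question was how the members answered Tpc and OL9-119 in WT cells. IRF1 rose 1.88-fold with Tpc + OL9-119, and no other member passed the test there. IRF1 was at 33.5, 23.2, 28.4 and 20.2 CPM in the 4 untreated libraries and at 42.8, 49.6, 63.5 and 42.0 CPM with the combination. Every treated library was above every untreated one (log2 fold change 0.91, SE 0.20, adjusted p = 0.00136). Among all genes 4.07% were called in this comparison, and 1 of 8 members is too few to read against that share. With upper-quartile scaling the share of all calls that were higher went from 50.8% to 39.6%. Without Tpc + OL9-119 replicate 3, the highest library, the adjusted p was 0.0144, and with only the WT libraries in the fit it was 0.0192.

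With Tpc alone IRF1 was at 53.7, 37.2, 44.7 and 42.4 CPM, again above every untreated library. Its log2 fold change of 0.75 (SE 0.20) had an adjusted p of 0.0254 and did not pass 0.01. No member passed in this comparison, where 0.857% of all genes did. At an unadjusted p under 0.05 there were 4 (IFIT1, IFIH1, IRF1 and IRF7), and DESeq2 called 1, IRF1. Without the 8 libraries of low gene detection IRF1 was called with both treatments, at log2 1.12 for Tpc (adjusted p = 4.01e-05) and 1.29 for Tpc + OL9-119 (adjusted p = 6.86e-06).

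IRF7, the factor that amplifies interferon production, was at 27.1, 26.5, 24.9 and 24.9 CPM with Tpc against 10.4, 19.5, 16.2 and 13.99 CPM untreated. The groups did not overlap, with a log2 fold change of 0.79 (SE 0.24, adjusted p = 0.0609). With the combination IRF7 spread from 17.3 to 35.0 CPM and overlapped the untreated libraries (log2 0.71, SE 0.24, adjusted p = 0.0467).

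The RNA sensor IFIH1 was at 15.9, 23.3, 17.8 and 20.2 CPM with Tpc and 33.9, 20.5, 17.6 and 17.0 CPM with the combination. Untreated libraries held 4.18, 12.4, 14.6 and 15.9 CPM, below every treated one by a small margin. The log2 fold changes were 0.72 (SE 0.32, adjusted p = 0.26) and 0.94 (SE 0.32, adjusted p = 0.0566). Without the 8 libraries, which include the untreated library at 4.18, they were 0.35 and 0.29.

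IFIT1 had lower means with both Tpc treatments. It had 4.04, 12.7, 20.6 and 12.99 CPM untreated, 5.70, 11.8, 4.49 and 8.12 with Tpc, and 4.00, 7.66, 6.72 and 5.22 with the combination. The groups overlap, since untreated replicate 1 lies below all but 1 of the treated libraries. The log2 fold changes were -0.73 (SE 0.35, adjusted p = 0.298) and -1.08 (SE 0.35, adjusted p = 0.0431). Without untreated replicate 1 IFIT1 was called lower with the combination.

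IFIT2, IFIT3, ISG15 and OASL did not pass in any WT treatment. For IFIT3 untreated replicate 1 stood at 19.45 CPM and the other 3 at 7.11 to 7.38, below the 11.2 to 13.8 CPM of the Tpc libraries. Its log2 fold change with Tpc was 0.29 (interval -0.25 to 0.84). The median log2 fold change over the 8 members was 0.26 for Tpc and 0.16 for Tpc + OL9-119, and over all tested genes it was 0.00 in both.

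OL9-119 alone and DMSO alone left no member past the threshold in WT cells. OL9-119 called 1.28% of all genes and DMSO 0.0%, and no member had an unadjusted p under 0.05 in either comparison, nor did DESeq2 call one. Against OL9-119 alone, no member passed with the combination (0.408% of all genes) or with Tpc (0.947%). IRF1 came closest, at log2 0.80 (SE 0.20, adjusted p = 0.0254) and 0.65 (SE 0.20, adjusted p = 0.0788). Unadjusted p under 0.05 was reached by 4 and 3 members in these comparisons, and DESeq2 called 1 and 0.

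Adding OL9-119 to Tpc changed no member in WT cells, where 0.18% of all genes were called. For IRF1 the difference was 0.15 on the log2 scale with a 95% interval of -0.23 to 0.54. The non-additive term, the combination's log2 change less those of both single drugs, was called for 0.00346% of genes and for no member, with IRF1 at 0.05 (interval -0.50 to 0.59). In neither comparison did a member reach an unadjusted p under 0.05 or a DESeq2 call. DMSO-treated cells as comparator gave IRF1 log2 0.71 for Tpc and 0.86 for the combination.

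A contrast added after the values were seen set the mean of both Tpc arms against the mean of untreated and DMSO-treated WT cells. There 3 of 8 members were called, beside 6.11% of all genes. IRF1 rose (log2 0.81, SE 0.14, adjusted p = 2.76e-05), IRF7 rose (0.72, SE 0.17, adjusted p = 0.00185) and IFIT1 fell by 0.92 (SE 0.25, adjusted p = 0.00839). IFIH1, at 0.83 (SE 0.23), missed the threshold with an adjusted p of 0.0101. It passed with DESeq2 (0.00501), with RLE scaling (0.0096), with length and GC offsets (0.00878) and in 6 of the fits that left out 1 library, among them the one without DMSO replicate 2 (1.05, 0.000788), and was at 0.49 (0.149) without the 8 libraries of low gene detection. Without the 8 libraries of low gene detection IRF7 was at 0.58 with an adjusted p of 0.0445, and without Tpc + OL9-119 replicate 2 its adjusted p was 0.011. IFIT1 lost its call in 11 of the fits that left out 1 library (adjusted p 0.0111 to 0.0376), the highest without untreated replicate 3. The call was also lost with only the WT libraries in the fit (0.0472) and without a low-count filter (0.0104). IRF1 kept its call in each of these.

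**Figure D2:**
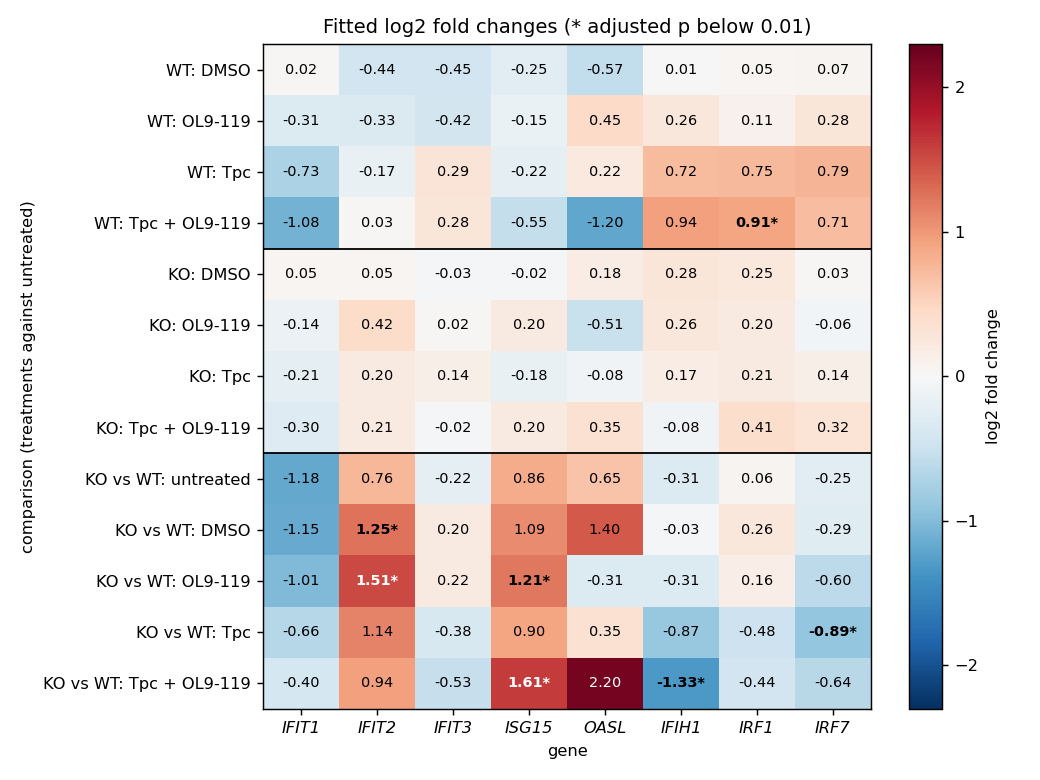
Fitted log2 fold changes of 8 genes in 13 comparisons, treatments against untreated cells of the same genotype above and PARP1-KO against WT below; an asterisk marks an adjusted p below 0.01. IRF1 in WT cells with Tpc + OL9-119 is the only marked cell among the treatment rows, and IFIT1 is negative in all 5 genotype rows.

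The second question was whether the members answered the drugs in PARP1-KO cells. None passed in any treatment. IRF1 was at 22.9, 30.7, 27.6 and 28.8 CPM untreated, at 23.0, 37.5, 30.4 and 36.7 with 50 nM Tpc, and at 39.98, 38.6, 30.1 and 37.5 with the combination. These groups overlap, and the log2 fold changes were 0.21 (SE 0.20, adjusted p = 0.956) and 0.41 (SE 0.20, adjusted p = 1.0). IRF7 stayed between 11.3 and 18.8 CPM with Tpc against 11.1 to 13.7 untreated, a log2 fold change of 0.14 (interval -0.32 to 0.60). IFIH1 was at 0.17 (interval -0.47 to 0.80) and IFIT1 at -0.21 (interval -0.90 to 0.49).

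In PARP1-KO cells few genes of any kind were called, 0.0138% with Tpc, 0.00346% with OL9-119, 0.0% with the combination, 0.0% with DMSO and 0.0% between the combination and Tpc. Among members, the unadjusted p was under 0.05 only for IRF1 with the combination, and DESeq2 called none in these 5 comparisons. The added contrast of both Tpc arms called 0.0242% of genes and no member, with IRF1 at 0.19 (SE 0.14, adjusted p = 0.99), none at an unadjusted p under 0.05 and none by DESeq2.

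The genotypes' responses were then compared directly by interaction terms. No member passed for Tpc (0.1% of all genes), OL9-119 (0.0657%) or the combination (0.27%). The response of IRF1 was lower in PARP1-KO than in WT cells by 0.54 for Tpc on the log2 scale (interval of the difference -1.09 to 0.00, adjusted p = 0.681). For IRF7 the difference was -0.65 (interval -1.30 to 0.01, adjusted p = 0.681), and for IFIH1 with the combination it was -1.02 (interval -1.92 to -0.12, adjusted p = 0.368). IFIH1 with the combination was the single member term with an unadjusted p under 0.05, and DESeq2 called none. In the added contrast of both Tpc arms, with 0.539% of genes called, IRF1 differed by -0.62 (interval -1.01 to -0.24, adjusted p = 0.111) and again no member passed. There the unadjusted p was under 0.05 for 3 members, IFIH1, IRF1 and IRF7, and DESeq2 called none. The IRF1 term of that contrast passed when DMSO replicate 3 of WT, with 46.5 CPM, was left out, and without the 8 libraries of low gene detection. The plot of Tpc responses shows intervals of WT and PARP1-KO that overlap for every member.

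**Figure D3:**
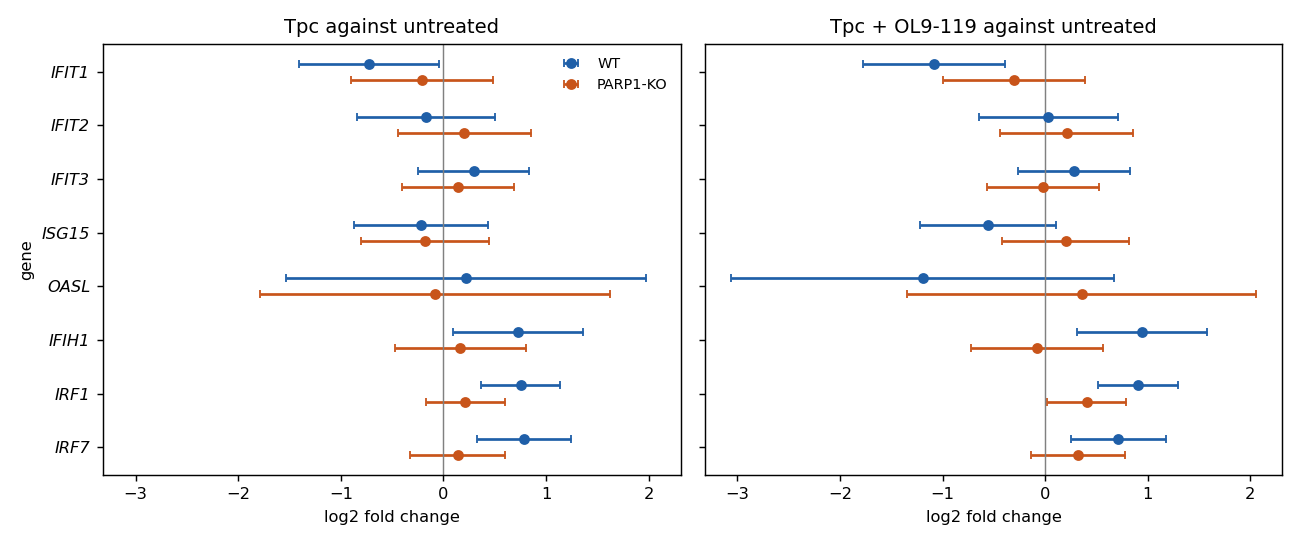
Log2 fold change against untreated cells with its 95% interval for 8 genes, WT in blue and PARP1-KO in orange, for Tpc (left) and Tpc + OL9-119 (right). The WT intervals of IFIH1, IRF1 and IRF7 lie above 0 in both panels, and that of IFIT1 lies below 0 in both. OASL has the widest intervals, from -3.06 to 0.67 in WT with Tpc + OL9-119.

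The third question was how the lines differed in the absence of the drugs. IFIT2 was 2.38-fold higher in PARP1-KO than in WT cells in DMSO. It had 7.79, 10.9, 10.6 and 12.2 CPM in PARP1-KO and 2.7, 4.96, 4.55 and 5.48 CPM in WT cells, without overlap (log2 1.25, SE 0.35, adjusted p = 0.00572). It was the only member called, beside 12.4% of all genes. The call was lost with only the 2 DMSO groups in the fit (adjusted p = 0.0287), with length and GC offsets per gene (0.0147), and in the fits without WT replicate 1 (0.0379) or 3 (0.0106) or PARP1-KO replicate 2 (0.0157), 3 (0.0128) or 4 (0.0225). In untreated cells IFIT2 was at 12.7, 7.33, 10.6 and 9.93 CPM in PARP1-KO against 4.99, 3.24, 10.7 and 4.87 CPM in WT (log2 0.76, SE 0.34, adjusted p = 0.11). There the groups overlap through WT replicate 3.

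ISG15 was at 8.78, 13.1, 14.5 and 12.7 CPM in untreated PARP1-KO and 9.98, 6.21, 5.53 and 5.25 CPM in untreated WT cells (log2 0.86, SE 0.32, adjusted p = 0.0544). In DMSO it was at 13.6, 13.1, 7.34 and 14.4 against 6.04, 4.43, 7.31 and 5.01 CPM (log2 1.09, SE 0.33, adjusted p = 0.0126). The DMSO groups almost touch, at 7.31 in WT and 7.34 in PARP1-KO cells.

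IFIT1 went the other way. It was at 4.39, 5.32, 6.11 and 6.22 CPM in untreated PARP1-KO cells and at 6.56, 5.12, 5.87 and 5.41 CPM in DMSO, against 8.44 to 17.7 CPM in WT cells in DMSO. The log2 fold changes were -1.18 (SE 0.35, adjusted p = 0.0113) untreated and -1.15 (SE 0.35, adjusted p = 0.0128) in DMSO, both above the threshold of 0.01. Without untreated WT replicate 1 IFIT1 was called untreated, and without untreated WT replicate 3 IFIT2 was.

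No member was called in untreated cells, where 11.7% of all genes were. Of the 8 members 3 had an unadjusted p under 0.05 (IFIT1, IFIT2 and ISG15), and DESeq2 called 1, IFIT1. Without the 8 libraries of low gene detection all 3 were called in untreated cells and in DMSO, at log2 -1.21 and -1.36 for IFIT1, 1.32 and 1.42 for IFIT2, and 1.10 and 1.11 for ISG15. That fit keeps only WT replicates 2 and 4 untreated and WT replicates 1 and 4 in DMSO. The median over the 8 members was -0.08 untreated and 0.23 in DMSO, and over all 28922 tested genes it was 0.17 and 0.19. Over genes with a mean of at least 50 counts it was 0.01 and 0.02. In these bulk samples a change in the share of cells and a change in RNA per cell cannot be told apart.

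The same genotype comparison under the drugs was added after the values were seen, and its WT and PARP1-KO groups differ in Tpc dose where Tpc was given. With OL9-119, IFIT2 (log2 1.51, SE 0.34, adjusted p = 0.000788) and ISG15 (1.21, SE 0.33, adjusted p = 0.00564) were higher in PARP1-KO cells, 2 of 8 members beside 9.77% of all genes. ISG15 lost its call when replicate 1, 3 or 4 of WT or replicate 1, 2 or 3 of PARP1-KO was left out, and 1 member, IFIT2, was then called. With Tpc 1 member was called beside 8.52%, IRF7, which was lower in PARP1-KO cells by -0.89 (SE 0.24, adjusted p = 0.00494). Its call was lost without any 1 of the 8 libraries other than PARP1-KO replicate 2 (adjusted p 0.0101 to 0.0244) and with length and GC offsets (-0.63, adjusted p = 0.0375). With the combination ISG15 was higher (1.61, SE 0.34, adjusted p = 0.000408) and IFIH1 lower (-1.33, SE 0.33, adjusted p = 0.00289), 2 of 8 beside 7.27%. IFIH1 lost its call without WT replicate 1, the highest library (adjusted p = 0.0389), without PARP1-KO replicate 2 or 3, and with gene detection as a covariate (0.0115).

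A further added contrast averaged over the 5 treatments, so it includes the Tpc conditions with their unlike doses. In it 5 of 8 members differed between the lines, beside 35.2% of all genes. It is not a comparison without drugs. In untreated cells IFIH1 differed by -0.31 (adjusted p = 0.543) and IRF7 by -0.25 (adjusted p = 0.496). ISG15 was 2.20-fold (log2 1.14, SE 0.15, adjusted p = 2.26e-09) and IFIT2 2.17-fold (1.12, SE 0.15, adjusted p = 8.18e-09) higher in PARP1-KO cells. IFIT1 was lower by -0.88 (SE 0.16, adjusted p = 4.53e-06), IFIH1 by -0.57 (SE 0.14, adjusted p = 0.000908) and IRF7 by -0.53 (SE 0.11, adjusted p = 2.67e-05). With gene detection as a covariate the IFIH1 call was lost (-0.52, adjusted p = 0.0174), and with length and GC offsets IRF7 was at -0.33 (0.00333). IFIT3, IRF1 and OASL did not pass. The genes within 2 Mb of IRF7 were lower in PARP1-KO cells as a group, with 35 of 55 called lower, 5 called higher and a median of -0.43. Around IFIT1 13 of 22 were lower and 2 higher (median -0.38), around IFIT2 15 of 25 lower and 1 higher, and around ISG15 24 of 68 lower and 7 higher. Around IFIH1 2 of 7 were lower and 1 higher (median -0.07). The windows of IFIT1 and IFIT2, which lie side by side, largely hold the same genes and are not separate neighbourhoods. IRF7 and IFIT1 thus moved in the direction of their neighbourhood and IFIT2 and ISG15 against it. The part of the neighbourhood in the result was not tested.

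The order of the conditions is drawn from the same libraries as the averaged contrast and is not separate evidence. How many of all genes rank in this way was not counted. All 5 PARP1-KO conditions ranked above all 5 WT conditions for mean CPM of IFIT2 and of ISG15, and all 5 WT conditions ranked above all 5 PARP1-KO conditions for IFIT1 and IFIH1. For IRF1, IRF7, IFIH1 and IFIT3 the 2 WT conditions with Tpc ranked highest. Neighbours in each of these orders overlapped in their libraries in every case.

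IFIT1 and IFIT2, neighbours on chromosome 10, can be compared within a library, where depth cancels. This ratio was chosen after the values were seen and is given as a description without a test. The log2 ratio of IFIT1 to IFIT2 counts ran from -0.68 to 2.71 (median 0.91) in the 20 WT libraries and from -2.07 to -0.25 (median -1.14) in the 20 PARP1-KO libraries. IFIT1 exceeded IFIT2 in 15 of 20 WT libraries and in 0 of 20 PARP1-KO libraries. Under each of the 5 treatments the WT and PARP1-KO libraries did not overlap. The difference between the line means was smallest with the combination, at -1.36, and largest with OL9-119, at -2.57.

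The other genes of the pathway were read from lists of sensors and adaptors, interferons, receptors and JAK-STAT factors, other IRF genes, effectors, and ISG15 conjugation and feedback genes. Of 113 listed genes 97 were tested. In WT cells 2 were called higher and none lower with Tpc, beside 0.857% of all genes. With OL9-119 none was higher and 2 were lower, beside 1.28%. With Tpc + OL9-119 1 was higher and 2 were lower, beside 4.07%. These counts are too few to read against those shares. In PARP1-KO cells none was called under any of the 4 treatments, where at most 0.0138% of all genes were.

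The gene with the largest change was CXCL10, a chemokine that is a target of interferon gamma and of NF-kappa B. It had 11.2, 8.80, 8.82 and 8.51 CPM with Tpc and 22.8, 19.8, 15.1 and 11.8 CPM with Tpc + OL9-119 in WT cells, and 0.00, 0.27, 0.00 and 0.62 CPM untreated. The untreated libraries held 8 counts in all, so the fitted log2 fold changes of 5.46 (SE 0.92, adjusted p = 8.82e-05) and 6.36 (SE 0.94, adjusted p = 2.31e-06) rest on few counts. In PARP1-KO cells it was at or below 1.18 CPM in every library. Its response was lower there by -6.40 for Tpc (adjusted p = 0.00389), a call that was lost against DMSO-treated cells (-5.75, adjusted p = 0.0212) and in 7 fits that left out 1 library (0.0104 to 0.0138: untreated WT replicate 1 or 3, WT Tpc replicate 1, untreated PARP1-KO replicate 2 or 3, PARP1-KO Tpc replicate 1 or 4), and by -6.28 for the combination (adjusted p = 0.00168), and without the 8 libraries of low gene detection the latter was -4.87 with an adjusted p of 0.0127.

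OAS3, a synthase that activates RNase L, rose 1.73-fold with Tpc in WT cells (log2 0.79, SE 0.18, adjusted p = 0.00615) and had an adjusted p of 0.016 with the combination. Without the 8 libraries of low gene detection its Tpc change was 0.48, with an adjusted p of 0.151. Against DMSO-treated cells it was 0.50 (0.142), and its call was also lost with only the WT libraries in the fit (0.051). Leaving out untreated replicate 1 or 3 or Tpc replicate 1, 3 or 4 ended the OAS3 call as well (0.0225 to 0.0819). BST2 (tetherin) fell with OL9-119 (log2 -0.59, adjusted p = 0.0061) and with the combination (-0.66, adjusted p = 0.000759). With length and GC offsets these were -0.39 (0.0529) and -0.30 (0.104), and without untreated replicate 1 they had adjusted p of 0.0915 and 0.0118. The OL9-119 call was lost in 6 of 8 fits without 1 library and without the 8 libraries of low gene detection (0.0356). ZC3HAV1, an antiviral zinc-finger protein, fell with OL9-119 (-0.77, adjusted p = 0.0011), and LGALS3BP fell with the combination (-0.56, adjusted p = 0.00212). Neither was called without the 8 libraries (ZC3HAV1 -0.50, 0.0641, and LGALS3BP -0.47, 0.0934). Leaving out untreated replicate 1 or OL9-119 replicate 2 also ended the ZC3HAV1 call, and leaving out untreated replicate 1 or 2 or combination replicate 1 or 4 the LGALS3BP call.

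Some targets of NF-kappa B were read for comparison. NFKBIA, the inhibitor of NF-kappa B, was called higher in WT cells with Tpc (log2 1.76, adjusted p = 8.27e-16), with the combination (2.15, adjusted p = 1.86e-19) and with OL9-119 (0.55, adjusted p = 0.00603). The OL9-119 call was lost with upper-quartile scaling (0.0133), without the 8 libraries (0.0233) and with only the WT libraries in the fit (0.0375). It was also lost without untreated replicate 1 or 2 or any 1 OL9-119 library (0.0145 to 0.0436). TNFAIP3, another feedback inhibitor, and the chemokine CXCL8 were called higher with Tpc, at 3.46 and 4.97. All of these were already higher in PARP1-KO than in WT cells without drugs. Untreated, the differences were 0.64 for NFKBIA (adjusted p = 0.000136), 1.76 for TNFAIP3 (1.05e-10) and 1.69 for CXCL8 (2.32e-10). In DMSO they were 0.97, 2.28 and 1.21. In PARP1-KO cells the NFKBIA change with Tpc was 0.08 (adjusted p = 1.0), and the interaction term was -1.68 (adjusted p = 2.09e-09).

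Between the lines the pathway genes split both ways. In untreated cells 6 were higher and 10 lower in PARP1-KO cells, and in DMSO 6 were higher and 11 lower, of 97 tested. Of the 50 effectors 3 were higher and 7 lower untreated, beside 11.7% of all genes called, and 3 higher and 8 lower in DMSO, beside 12.4%. Among effectors that were lower, PARP12, a mono-ADP-ribosyltransferase, was at 0.63 ± 0.43 CPM against 12.6 ± 6.74 in WT (log2 -4.19, SE 0.64, adjusted p = 9.69e-07). The membrane protein IFITM3, which blocks viral entry, was lower by -1.64 (adjusted p = 1.05e-10) and IFITM2 by -1.01 (adjusted p = 8.19e-05). OAS3 was lower by -1.42 (adjusted p = 2.61e-08), the nucleotide kinase CMPK2 by -1.77 (adjusted p = 0.00408, lost without WT replicate 2 or 4 or PARP1-KO replicate 1 or 4) and IFI35 by -1.70 (adjusted p = 0.000609).

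Among effectors that were higher, the exonuclease ISG20 was at 15.1 ± 2.90 CPM against 1.82 ± 1.40 (log2 3.05, SE 0.47, adjusted p = 9.91e-07), and the DNA sensor IFI16 was higher by 1.66 (adjusted p = 0.0076). The IFI16 call was lost with length and GC offsets (0.0133) and without WT replicate 1 or 3 or PARP1-KO replicate 2, 3 or 4 (0.0182 to 0.0409). IFI44L was called in DMSO, at 2.61 (adjusted p = 0.000183). Of the conjugation genes UBE2L6, the E2 enzyme for ISG15, was lower untreated (-1.23, adjusted p = 0.000216) and in DMSO, where HERC6 was lower as well (-0.96, adjusted p = 0.00389). UBE2L6 in DMSO was at -0.68 (0.0329) without the 8 libraries, and HERC6 lost its call without WT replicate 2 or 4 or PARP1-KO replicate 1, 2 or 3 (0.0124 to 0.0171). The fitted changes of UBE2L6 and ISG15 had opposite signs.

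Of the sensors and adaptors, STING1 was lower in untreated PARP1-KO cells (-0.75, adjusted p = 0.0015) and TLR3 in DMSO (-1.97, adjusted p = 0.00989), each with overlapping libraries. They were at -0.44 (0.0768) and -1.32 (0.0693) without the 8 libraries. STING1 also lost its call without replicate 1 of either line, and TLR3 without WT replicate 3 (-1.28, 0.136) or 4 or PARP1-KO replicate 1, 3 or 4. The adaptor MYD88 was higher untreated (1.33, adjusted p = 0.00451), as was the kinase TBK1 (0.52, adjusted p = 0.00904), and TICAM1 was higher in DMSO (1.03, adjusted p = 0.000314). With length and GC offsets TBK1 was at 0.15 (0.399), and its call was lost without any 1 library other than PARP1-KO replicate 4. The MYD88 call was lost without WT replicate 3 (0.99, 0.0303) or 4 or PARP1-KO replicate 1 or 3. In DMSO, CGAS, the cytosolic DNA sensor, had 0 counts in WT cells and 48 in PARP1-KO cells. For DMSO alone that is at least 11.9-fold higher when 3 counts over the 4 WT libraries are taken as the floor. The CGAS call in DMSO was lost without WT replicate 1 (adjusted p = 0.0114), and CGAS was not called in untreated cells. Over all WT libraries it had 32 counts, was at 0 in 10 and reached 0.82 CPM, against 206 counts in PARP1-KO libraries. Averaged over the treatments, with their unlike Tpc doses, CGAS was 7.09-fold higher in PARP1-KO cells, which is below the DMSO bound. The receptor chain IFNGR2 was lower untreated by -0.80 (adjusted p = 0.000262), and by -0.43 (0.0314) without the 8 libraries, -0.54 (0.0142) without WT replicate 3 and -0.56 (0.0114) with gene detection as a covariate.

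**Figure D4:**
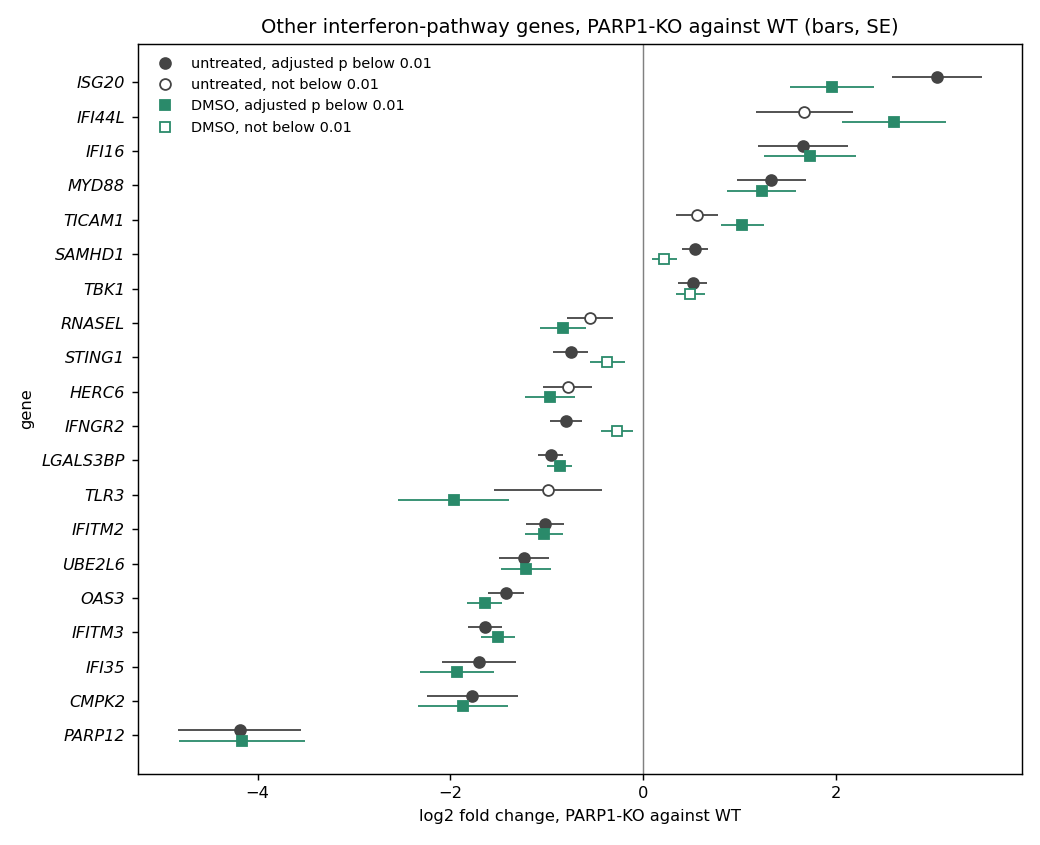
Log2 fold change of PARP1-KO against WT (bars, SE) for 20 pathway genes called untreated or in DMSO, with filled symbols where the adjusted p was below 0.01; CGAS, at 0 in WT cells in DMSO, and 1 other called gene are not drawn. PARP12 lies lowest near -4.19 and ISG20 highest at 3.05 in untreated cells.

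Genes with the most similar profile over the 10 condition means of log2 CPM were sought among 12161 well-counted genes. For IRF1 they were NFKBIA (Pearson r 0.97), ZC3H12C (0.96) and USP43 (0.96), and for IFIH1 CEP295, BDKRB2 and ICAM1 (0.96 to 0.95). For IFIT2 they were FBXO5, KRIT1 and TBC1D23 (0.99 each), for ISG15 they included UQCC1 and TRMT1 (0.98 each), and for IFIT1 ARL2, PBXIP1 and EPB41L1 (0.98 each). IFIT3 was closest to CD83 (0.95), OASL to KLF2 (0.97) and IRF7 to MCM5 (0.98). These values describe 10 points that fall in 2 genotypes, and a gene that differs between the lines is near many others on that account.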

How the data were processed

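Reads of poly(A) RNA were processed by the authors, who per the labels' processing notes used FastQC 0.11.9, STAR 2.7.8 and Picard 2.26.6 on hg38. The deposited values are raw read counts per Ensembl gene from STAR, with no normalization. The strand setting is not given in the sources used here. One count table covers all 40 libraries, and its columns were matched to samples by the library names in the labels. Symbols, coordinates and exon lengths came from GENCODE release 44, which held 57754 of 58395 gene identifiers.

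Genes with at least 10 counts over all libraries were kept (28922). TMM-normalized counts were fitted with edgeR 4.0.16 (glmQLFit with legacy settings, glmQLFTest) in R 4.3.3, with 1 coefficient for each of 10 conditions and all 40 libraries. Genes were called at a Benjamini-Hochberg adjusted p below 0.01 over all tested genes. CPM used TMM library sizes. SE is the log2 fold change divided by the square root of F, and intervals are 95%. Floors cover counting error only, and reads without molecular identifiers are not independent molecules. The scripts were tested on simulated data. No pair of replicates agreed within sampling noise.

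Named genes were all members, PARP1, other listed pathway genes that passed a test (the 8 largest of a list if more passed), NFKBIA, TNFAIP3 and CXCL8, and the 3 genes most like each member. Members, lists and comparisons were chosen with earlier results of these data known. Alternatives were DESeq2 1.42.0, RLE and upper-quartile factors, other filters, a replicate block, library prefix, other sample subsets, a DMSO comparator and leaving out each library, and, chosen after seeing the data, length and GC offsets, gene detection as a covariate and a fit without 8 libraries of low gene detection. Some named items that met the rule are not reported here.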

Additional observations from a re-analysis of the deposited data

Results flagged for a closer look

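Of 83 groups of 4 libraries examined over the members, 6 held a library far from the other 3. Chance flags about 1 in 20 such groups if values are normally spread. That rate does not hold for IFNB1, where any single library above 0 is flagged when the other 3 are at 0. WT OL9-119 replicate 2 and untreated WT replicate 1 are among the 8 libraries of low gene detection. IFIT1 was at 14.02 CPM in WT OL9-119 replicate 2 against 8.68 to 9.02 in the others, and ISG15 was at 10.99 CPM in the same library against 4.41 to 4.77. IFIT3 was at 19.45 CPM in untreated WT replicate 1 against 7.11 to 7.38. OASL was at 2.27 CPM in WT DMSO replicate 1 against 0.00 to 0.31. IFNB1 was at 0.476 CPM in PARP1-KO OL9-119 replicate 1 and at 0.236 CPM in PARP1-KO Tpc + OL9-119 replicate 4, with the other 3 libraries at 0 in each group.

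The response of CXCL10 differed between the genotypes by a test of the difference, at -6.40 on the log2 scale for Tpc and -6.28 for Tpc + OL9-119, PARP1-KO minus WT. The Tpc term was not called against DMSO-treated cells (adjusted p = 0.0212), nor the combination term without the 8 libraries of low gene detection (0.0127). The Tpc doses of the lines differ, so genotype and dose cannot be told apart here.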

How the results depend on the processing

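Over the members and the other called pathway genes no alternative reversed a called change, and 6374 of the values kept their side of the threshold, 193 lost it and 80 gained it. With Tpc in WT cells 0 members were called, and 1 with DESeq2, without a low-count filter, with length and GC offsets, with high-complexity libraries only, and at a threshold of 0.05. With Tpc + OL9-119 in WT cells 1 was called, 2 with length and GC offsets, 3 at 0.05, and 0 with only the WT libraries in the fit. For the combination against OL9-119 the count of 0 became 1 with DESeq2, without a filter, with the offsets, with high-complexity libraries and at 0.05, and for Tpc against OL9-119 it became 1 with high-complexity libraries. Between the lines untreated, 0 became 1 with DESeq2, filterByExpr, newer edgeR settings, gene detection as a covariate and at 0.05, 2 with the offsets and 3 with high-complexity libraries. In DMSO 1 became 3 with DESeq2, filterByExpr, newer edgeR settings, high-complexity libraries and at 0.05, 2 with the offsets and with gene detection as a covariate, and 0 with only the DMSO libraries. Between the lines with Tpc 1 became 2 with DESeq2, newer edgeR settings, gene detection as a covariate and at 0.05, 3 with only the compared libraries and 5 with high-complexity libraries, and the contrast of both Tpc arms between genotypes went from 0 to 1 with high-complexity libraries. The causes were not tested. Leaving out 1 library gave 0 to 2 members for the combination in WT cells and 2 to 4 for the Tpc arms in WT cells. Between the lines it gave 0 to 2 in DMSO, 0 to 1 untreated, with Tpc and for the response to both Tpc arms, 1 to 2 with OL9-119 and with the combination, and 5 to 6 for the average, and 0 in the other comparisons. Same-numbered libraries had a mean r of 0.05 (WT libraries) and 0.10 (PARP1-KO libraries), with 15 of 40 pairs above 0.1 in each. Libraries of other numbers had a mean r of -0.01 and -0.03. Same-numbered libraries were thus slightly more alike, and this check cannot decide whether the numbers pair the samples. With a replicate block 1 member was still called for the combination in WT cells and 1 in DMSO. Depth limits OASL, with 0 to 44 counts per library, and IFNB1.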
